A study of Mus musculus with 4 samples.

Results

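Tooth germs treated with cyclophosphamide at 25 °C (25°C_CPA) were compared with tooth germs treated with the drug at 37 °C (37°C_CPA), across all genes of a CAGE count table. The same temperature difference without the drug, 25°C_DMSO against 37°C_DMSO, was set beside it. The comparison takes 2 of the 4 libraries, and 13343 of the 15887 genes of the table were measured in it. Both 25 °C and both 37 °C libraries came from cultured tooth germs (mandibular first molars) of ICR mice, an outbred stock, and each library was made from more than 5 tooth germs. CPA is cyclophosphamide and DMSO is the solvent that the control cultures received. The characteristics give the stage as embryonic day 14.5, and the sample records give an earlier day of dissection. Treatment lasted 3 days at either temperature. The series text gives 2.5 mM CPA, and the sample records give 0.25 mM and describe 4 more days without the drug, so dose, stage and later culture differ by source. No library carries a transgene or a deletion.

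Each condition has 1 library, so the differences rest on single libraries, without replicates and without p-values. To be measured in a comparison, a gene needed 50 counts or more in 1 of its libraries. A scaled fold of 2 or more is a call. The 95% intervals are exact for the binomial split of the 2 counts. They cover counting error only, and the spread between cultures is unknown. A library with 0 counts was set to 3 counts, and the fold is then a lower bound. Library totals lay between 15101186 and 16449264 counts, so 3 counts stand for 0.182 to 0.199 CPM (counts scaled to a library of 1000000). Counts in all libraries were the same as those of another gene for 915 genes, and for genes that overlap or are near copies the reads cannot be separated.

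The tooth germ label was checked against markers. Of 19 dental mesenchyme markers none was at 0 in any library, and their summed level was 1595 CPM in 25°C_CPA and 1361 CPM in 37°C_CPA, against 1561 CPM in 25°C_DMSO and 1761 CPM in 37°C_DMSO. The 17 regulators of the dental epithelium were also above 0 in every library, with a summed level of 1080.0 CPM in 25°C_CPA and 1386 CPM in 37°C_CPA, against 1082 CPM in 25°C_DMSO and 1691 CPM in 37°C_DMSO. Markers of erythroid cells, macrophages, muscle, endothelium, nerve and cartilage were also found in all 4 libraries, and their levels are given below beside the genes they bear on.

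Cyclophosphamide is a prodrug whose activated form alkylates DNA and links its strands. Cells answer such damage through the p53 transcription factor, which raises a cell cycle inhibitor, Cdkn1a (p21), together with genes of apoptosis, and crosslinks are repaired through the Fanconi anaemia and homologous recombination proteins. Mammalian cells kept below body temperature divide slowly and raise a small group of cold-inducible RNA-binding proteins. In the embryonic tooth germ an epithelium and a neural crest-derived mesenchyme exchange signals that set the form of the crown.

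With CPA, 843 genes were at least 2-fold higher at 25 °C than at 37 °C, 6.32% of those measured, and 1456 were at least 2-fold lower, 10.9%. With DMSO, 870 of 13491 measured genes were higher (6.45%) and 1556 were lower (11.5%). The lower side held the larger folds in both. At 10-fold or more, 21 genes were higher and 198 lower with CPA, against 26 higher and 195 lower with DMSO. The median log2 fold of all measured genes was 0.00 with CPA and -0.01 with DMSO. In bulk tissue such a difference can be fewer cells of a type or less RNA per cell, and these cannot be told apart.

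Most of the temperature difference was common to both media. Among the 13151 genes measured in both comparisons, 538 were higher in both, which is 67.0% of the genes higher with CPA and 64.2% of those higher with DMSO. Another 960 were lower in both, 69.9% of the genes lower with CPA and 69.2% of those lower with DMSO. The log2 folds of the comparisons had a Pearson correlation of 0.88 and a Spearman correlation of 0.81 across these genes, a description only, since genes are not independent replicates. No library is shared between the comparisons. Lower with CPA but not called with DMSO were 412 genes, and 355 of them had a fold below 1 with DMSO as well.

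**Figure D1:**
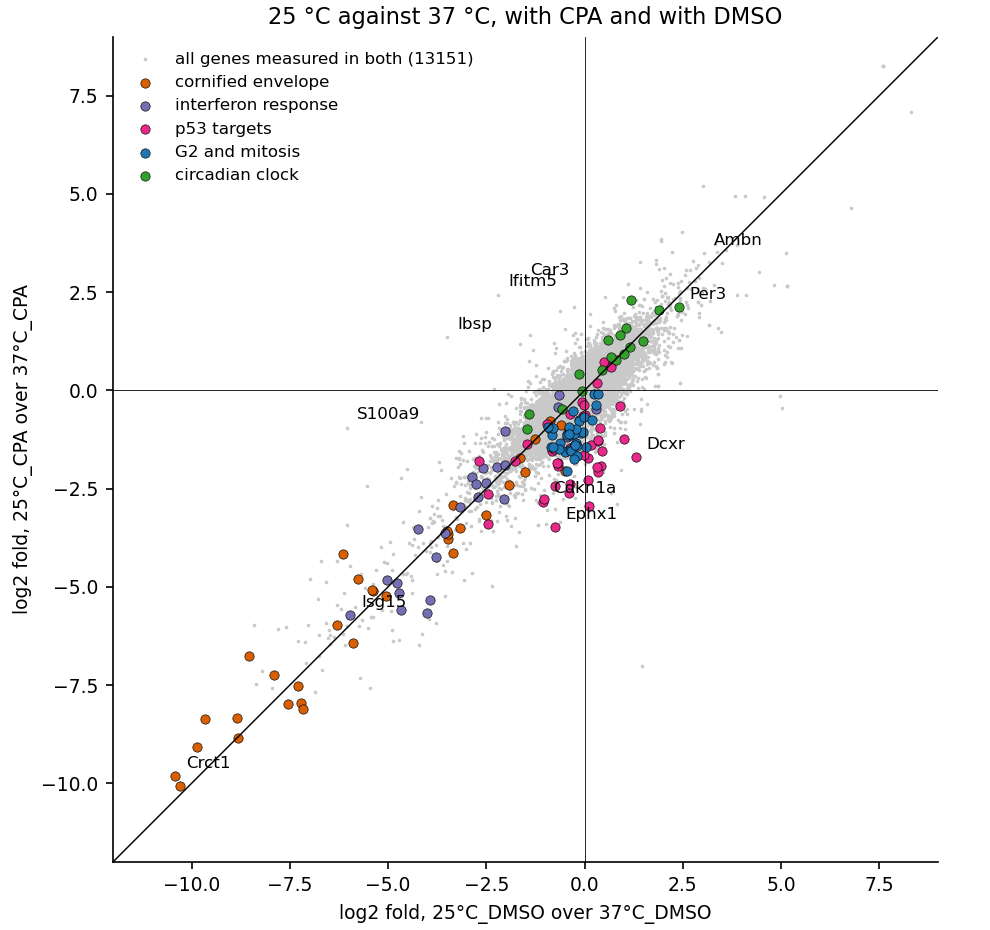
Log2 fold of 25°C_CPA over 37°C_CPA (vertical axis) against the log2 fold of 25°C_DMSO over 37°C_DMSO (horizontal axis) for 13151 genes measured in both (grey), with 5 gene lists in colour and the line of equal folds. Cornified envelope and interferon genes lie along the line at the lower left, p53 targets and mitotic genes lie below the line near a DMSO fold of 1, and Ibsp, Ifitm5 and Car3 lie above it.

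To find where the drug went with a different temperature response, the fold with CPA was divided by the fold with DMSO. This ratio was 2 or more in 215 genes (1.63% of 13151) and 0.5 or less in 360 genes (2.74%). The order of these counts turned with the scaling: 370 genes had a ratio of 2 or more and 259 of 0.5 or less without scaling, and 503 and 209 scaled to Gapdh. With counting intervals wholly beyond 2-fold they were 43 and 112. In the 360 genes the libraries of the higher temperature differed most: 37°C_CPA and 37°C_DMSO differed at least 2-fold in 245 of them, while 25°C_CPA and 25°C_DMSO did so in 21. Among the 215 genes these numbers were 86 and 24. The ratio of folds is by construction set by these pairs of libraries, so differences within a pair are largely built in. The same counts were not made over all genes, so they describe these genes only. The gene groups on each side are described in turn. Calls in each list are to be set beside the shares over all genes. These were 6.32% higher and 10.9% lower with CPA, and 6.45% and 11.5% with DMSO.

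Most p53 targets were lower at 25 °C than at 37 °C with CPA. Of 45 measured targets 33 were lower and 0 were higher, against 10.9% of all genes lower, and the median log2 fold was -1.71. Among the 33, Plk5, Ano3 and Abcb1b were not measured with DMSO. With DMSO 7 of 42 were lower and 1 was higher, with a median of -0.03, which turned to 0.40 when libraries were scaled to Gapdh. In 25 of the 42 targets measured in both comparisons the ratio of the folds was 0.5 or less, and in 0 it was 2 or more. Over all genes these shares were 2.74% and 1.63%. The list was chosen with earlier results of these data known. Several members, among them Ccng1, Eda2r and Ephx1, are on the study's own list of genes raised in 37°C_CPA, drawn from these libraries. These counts are therefore a description and not a separate test. The 4 members with a fold above 1 with CPA were Xpc, a damage sensor of nucleotide excision repair, Sesn1, a stress-induced sestrin, Rrm2b, a ribonucleotide reductase subunit, and Ccnk, a cyclin, with log2 folds of 0.74, 0.71, 0.59 and 0.20 with CPA, and 0.71, 0.49, 0.66 and 0.32 with DMSO.

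Cdkn1a, the p53 target that inhibits cyclin-dependent kinases, had 484 counts in 25°C_CPA and 3599 in 37°C_CPA, and 503 counts in 25°C_DMSO and 1220 in 37°C_DMSO. The 25 °C libraries were alike and the 37°C_CPA library stood above the others. Cdkn1a was 7.13-fold lower at 25 °C with CPA (95% interval 6.48 to 7.86) and 2.09-fold lower with DMSO (1.88 to 2.33). Cdkn1a lies on chromosome 17 at 29227924 to 29237667 of mm9. Ccng1, which encodes cyclin G1, had 1222 counts in 25°C_CPA and 4878 in 37°C_CPA, and 1213 counts in 25°C_DMSO and 1052 in 37°C_DMSO. Its temperature difference was thus present with CPA, 3.83-fold lower (3.59 to 4.08), while with DMSO it was 1.34-fold higher (1.23 to 1.45).

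Ephx1, a microsomal epoxide hydrolase, had 88 counts in 25°C_CPA and 1029 in 37°C_CPA, and 102 counts in 25°C_DMSO and 198 in 37°C_DMSO. It was 11.2-fold lower with CPA (9.01 to 14.1) and 1.67-fold lower with DMSO (1.31 to 2.15). Eda2r, a receptor of the TNF receptor family that binds ectodysplasin A2, had 55 counts in 25°C_CPA and 442 in 37°C_CPA, against 60 in 25°C_DMSO and 64 in 37°C_DMSO. Eda2r was thus high in the 37°C_CPA library alone. Trp53inp1, a p53-induced nuclear protein, was 4.19-fold lower with CPA (3.65 to 4.84) and 1.26-fold higher with DMSO (1.04 to 1.53). The lowest 3 targets by fold with CPA were Plk5, a polo-like kinase family member (8 and 311 counts in 25°C_CPA and 37°C_CPA, 4 and 18 counts in 25°C_DMSO and 37°C_DMSO), Ano3, an anoctamin (10 and 214 counts, then 14 and 4 counts), and Abcb1b, a drug efflux pump (20 and 370 counts, then 17 and 29 counts). These 3 reached the minimum count only through 37°C_CPA, so they have no measured fold with DMSO.

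Not every p53 target followed this pattern. Pmaip1, which encodes the apoptosis activator Noxa, was 10.5-fold lower with CPA (8.45 to 13.2) and also 5.52-fold lower with DMSO (4.27 to 7.24). Ak1, an adenylate kinase, had a log2 fold of -2.64 with CPA and -2.46 with DMSO. Mdm2, the ubiquitin ligase of p53, had 1637 counts in 25°C_CPA and 2697 in 37°C_CPA, and 1462 counts in 25°C_DMSO and 1749 in 37°C_DMSO, which is not a call in either comparison. Of 27 apoptosis genes 5 were lower and 0 higher with CPA, against 10.9% of all genes lower (median -0.18, or 0.48 scaled to Gapdh), and 2 were lower and 1 higher with DMSO, against 11.5% of all genes lower (median 0.14, or -0.07 without scaling). The 5 genes were Pmaip1, Bbc3, Apaf1, Fas and Tnfrsf10b, which the p53 list also holds. Bax, the pore-forming death effector, had a log2 fold of -0.96 with CPA and 0.39 with DMSO.

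The genes with the lowest ratio of folds, ranked by the interval bound nearest to 1, included 3 that the p53 list did not hold. Acaa1b, a peroxisomal thiolase, had 132 counts in 25°C_CPA and 1030 in 37°C_CPA, against 120 in 25°C_DMSO and 79 in 37°C_DMSO. Ddias, named as a suppressor of apoptosis after DNA damage, had 213 and 912 counts in 25°C_CPA and 37°C_CPA, and 219 and 134 counts in 25°C_DMSO and 37°C_DMSO. Inka2, an inhibitor of the kinase Pak4, had 40 and 428 counts in 25°C_CPA and 37°C_CPA, and 44 and 79 counts in 25°C_DMSO and 37°C_DMSO. In each the 25 °C libraries were close to each other and the 37°C_CPA library was highest. Dcxr, a sugar reductase, was called in opposite directions: it had 229 and 780 counts in 25°C_CPA and 37°C_CPA, 3.27-fold lower at 25 °C (2.82 to 3.80), and 225 and 105 counts in 25°C_DMSO and 37°C_DMSO, 2.48-fold higher at 25 °C (1.96 to 3.16).

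Some genes of crosslink repair and DNA replication were also lower at 25 °C with CPA, while few or none were with DMSO. Of 34 homologous recombination and Fanconi anaemia genes 13 were lower and 0 higher with CPA (median log2 fold -0.62, or 0.04 scaled to Gapdh), against 10.9% of all genes lower. With DMSO 1 was lower and 2 were higher (median 0.28), against 11.5% of all genes lower and 6.45% higher. Scaled to Gapdh, 3 were lower and 4 higher with CPA, and 1 was lower and 7 were higher with DMSO. Rad54l, a motor protein of strand exchange, had 38 counts in 25°C_CPA and 175 in 37°C_CPA, and 34 counts in 25°C_DMSO and 74 in 37°C_DMSO. Its 37°C_CPA library was the high one. Rad54l, Fanci and Hrob, which act in recombination or the Fanconi anaemia pathway, had the lowest log2 folds with CPA, -2.14, -1.72 and -1.69. Brca2, a mediator of homologous recombination, had a log2 fold of -0.04 with CPA and 1.05 with DMSO, and its 37°C_DMSO library was the low one with 264 counts, against 473 to 509 counts in the others.

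Of 40 DNA replication genes 10 were lower and 0 higher with CPA (median -0.63, or 0.03 scaled to Gapdh), against 10.9% of all genes lower. With DMSO 0 of 40 were called (median 0.21, or -0.000622 without scaling). Scaled to Gapdh, 1 was lower with CPA, and 7 were higher with DMSO. The ratio of folds was below 1 in all 40, also without scaling and scaled to Gapdh. Over all genes it was below 1 in 48.3%, in 31.8% without scaling and in 24.6% scaled to Gapdh. Tyms, which makes thymidylate, had 703 and 2340 counts in 25°C_CPA and 37°C_CPA, and 715 and 1347 counts in 25°C_DMSO and 37°C_DMSO. Rrm2, the S phase subunit of ribonucleotide reductase, had 454 and 1332 counts in 25°C_CPA and 37°C_CPA, and 455 and 430 counts in 25°C_DMSO and 37°C_DMSO. Both genes had nearly the same counts in the 25 °C libraries. Pcna, the sliding clamp of replication, had a log2 fold of -0.36 with CPA and 0.53 with DMSO, and Pole2, a polymerase epsilon subunit, had the highest log2 fold of the list with CPA, 0.30.

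Genes of G2 and mitosis gave the highest share of calls with CPA among the cell cycle lists. With CPA 25 of 37 were lower and 0 were higher at 25 °C (median -1.13), against 10.9% of all genes lower. With DMSO 0 of 37 were called (median -0.28, or 0.14 scaled to Gapdh). Scaled to Gapdh, 3 of the 25 calls with CPA were left, Espl1, Spag5 and Kntc1, and 0 of 37 were called with DMSO. Without scaling 5 of the 37 were lower with DMSO. Top2a, the topoisomerase that separates chromatids, had 1218 counts in 25°C_CPA and 3766 in 37°C_CPA, and 1225 counts in 25°C_DMSO and 2013 in 37°C_DMSO. It was 2.96-fold lower at 25 °C with CPA (2.78 to 3.17) and 1.42-fold lower with DMSO (1.32 to 1.52). The order of its libraries, with 37°C_CPA above 37°C_DMSO and the 25 °C libraries together below them, was also that of Ube2c, the ubiquitin-conjugating enzyme of the anaphase-promoting complex, and of Kif11, a spindle motor. Ube2c had 1344 and 4095 counts in 25°C_CPA and 37°C_CPA, and 1315 and 2086 counts in 25°C_DMSO and 37°C_DMSO.

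Espl1, the protease separase, Spag5, a spindle protein, and Kntc1, a kinetochore protein, had the lowest log2 folds with CPA, -2.05, -1.75 and -1.67, against -0.46, -0.28 and -0.20 with DMSO. Mki67, which encodes the proliferation marker Ki67, had 429 counts in 25°C_CPA and 1217 in 37°C_CPA, and 415 counts in 25°C_DMSO and 865 in 37°C_DMSO. It was 2.72-fold lower with CPA (2.43 to 3.04) and 1.80-fold lower with DMSO (1.60 to 2.03). Cdc25b and Cdc25c, phosphatases that start mitosis, had log2 folds of -0.09 each with CPA. The list was therefore not uniform.

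Many mitotic genes carry the cell cycle homology element (letters TTTGAA) near their start, so the RefSeq promoters (GRCm38.p6, 250 bases before to 50 after the start) were searched for it on both strands. It was found in 77.4% of the 31 mitotic promoters in the table, in 12.9% of the 31 replication promoters, in 12% of promoters of measured genes and in 18.1% of all 27025. No element was found in the 250 bases before the start of Plk1, Cenpe and Ccnb1, although 37°C_CPA was the highest library for Plk1 and Cenpe. Stretches before the start are shown for 4 genes that hold it and whose 37°C_CPA library was highest. They run 5′ to 3′ along the gene, with the element or its reverse complement in capitals.
Ube2c: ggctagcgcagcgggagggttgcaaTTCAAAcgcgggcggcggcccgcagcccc
Kif11: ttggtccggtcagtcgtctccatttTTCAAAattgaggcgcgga
Ccnb2: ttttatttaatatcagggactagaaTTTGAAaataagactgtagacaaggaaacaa
Cdc20: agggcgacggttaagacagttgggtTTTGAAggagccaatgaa
On GRCm38 they lie at chr2:164769875-164769928, chr19:37376338-37376381, chr9:70421691-70421746 and chr4:118437344-118437386. Ccnb2, a mitotic cyclin, was 2.20-fold lower at 25 °C with CPA (1.90 to 2.56) and 1.37-fold lower with DMSO (1.17 to 1.60). Cdc20, an activator of the anaphase-promoting complex, was 1.69-fold lower with CPA (1.59 to 1.81) and 1.10-fold lower with DMSO (1.02 to 1.17), so the element was present beside folds of different size. A match is a description of the letters and not of binding.

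Control of the G1 to S step was represented by 28 genes, of which 8 were lower and 0 higher with CPA (median -0.45, or 0.21 scaled to Gapdh), against 10.9% of all genes lower. With DMSO 4 of 27 were lower (median -0.05, or 0.38 scaled to Gapdh), near the 11.5% of all genes. The genes lower with CPA were the inhibitors Cdkn1a, Cdkn2b and Cdkn2d, the cyclins Ccne1 and Ccne2, and the transcription factors E2f1, E2f2 and E2f7. E2f2 reached the minimum count only through 37°C_CPA and was not measured with DMSO. Ccne2, E2f2 and E2f7 are on the study's own list of genes raised in 37°C_CPA, drawn from these libraries. Ccne2, which drives entry into S phase, had 428 and 1635 counts in 25°C_CPA and 37°C_CPA, and 477 and 550 counts in 25°C_DMSO and 37°C_DMSO. Among the genes called with CPA, cyclins and inhibitors were thus on the same side. With DMSO the 4 lower genes were Cdkn1a, Cdkn2b, Cdkn2d and E2f1, while Ccne1 and Ccne2 had log2 folds of 0.07 and 0.01. Of the 28 genes 7 had a fold above 1 with CPA. The inhibitors Cdkn1b and Cdkn1c were among them, with log2 folds of 0.09 and 0.63 with CPA and -0.36 and -0.07 with DMSO.

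The retinoblastoma protein and its kinases act at the same step. Rb1 had few tags, 50 counts in 25°C_CPA and 83 in 37°C_CPA, and 60 in 25°C_DMSO and 61 in 37°C_DMSO. Cdk2, a kinase of Rb1, had 1565 and 1674 counts in 25°C_CPA and 37°C_CPA, and 1507 and 1367 counts in 25°C_DMSO and 37°C_DMSO. Cdk6 had 654 and 658 counts in 25°C_CPA and 37°C_CPA, and 663 and 688 counts in 25°C_DMSO and 37°C_DMSO. Ccnd3, the cyclin D3 gene, was 1.34-fold lower at 25 °C with CPA (1.25 to 1.44) and 1.60-fold lower with DMSO (1.49 to 1.71). No call was made for these 4 genes in either comparison.

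**Figure D2:**
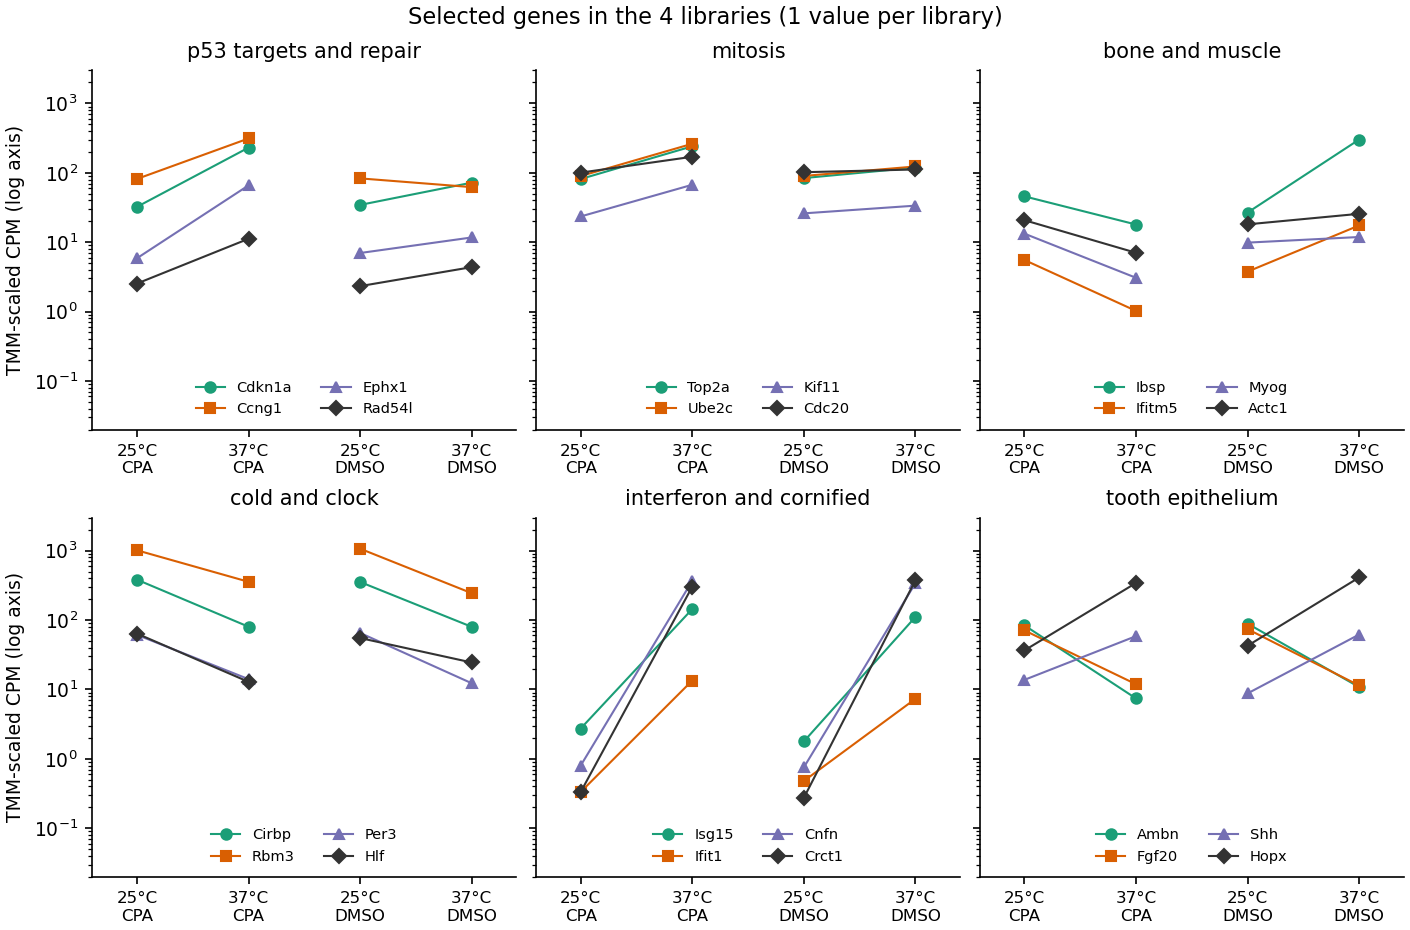
TMM-scaled CPM (log axis) of 24 genes in the libraries 25°C_CPA, 37°C_CPA, 25°C_DMSO and 37°C_DMSO, 1 point per library, with lines joining 25 °C to 37 °C within each medium. Cdkn1a, Ccng1 and Ephx1 are highest in 37°C_CPA, Ibsp in 37°C_DMSO, and the interferon and cornified genes are high in both 37 °C libraries.

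The genes of the cornified layer differed by the largest folds of the lists described here, in both media. The outer cells of stratified epithelium cross-link small proline-rich (Sprr) and late cornified envelope (Lce) proteins into a barrier. Of 36 measured genes of this kind 33 were lower and 0 higher at 25 °C with CPA (median -4.48), and 32 of 36 were lower with DMSO (median -5.22). Of the 34 genes measured in both, 30 were lower in both. These medians include folds that are bounds, from genes at 0 counts in a library. Without those genes the medians were -3.62 with CPA and -3.49 with DMSO, so the order of the medians depends on the bounds. Cnfn, which encodes cornifelin, had 12 counts in 25°C_CPA and 5740 in 37°C_CPA, and 11 counts in 25°C_DMSO and 5747 in 37°C_DMSO. It was 459-fold lower with CPA (262 to 888) and 451-fold lower with DMSO (252 to 903). At 0 counts were 15 of the 40 tabulated list genes in 25°C_CPA and 11 in 25°C_DMSO. Lce3a had 0 counts in 25°C_CPA and 3388 in 37°C_CPA, and 0 in 25°C_DMSO and 4341 in 37°C_DMSO, so it was at least 1083-fold lower with CPA.

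Crct1, a gene of the epidermal differentiation complex, had 5 counts in 25°C_CPA and 4726 in 37°C_CPA, and 4 counts in 25°C_DMSO and 6320 in 37°C_DMSO. Of the 12 lower genes named by rank, 9 were on this list, namely Crct1, Lce3a, Cnfn, Lce3f, Sprr1a, Lce3b, Lce3e, Krt6b and Sprr1b, and another was Csta1, a protease inhibitor of the stefin family. Their 25 °C libraries held 0 to 17 counts with CPA and 0 to 29 with DMSO. The remaining ones were Psca, a cell surface protein (5 and 933 counts in 25°C_CPA and 37°C_CPA, 5 and 1907 in 25°C_DMSO and 37°C_DMSO), and Ndufa4l2, a mitochondrial protein known as a hypoxia target (8 and 1170 counts, then 9 and 3095 counts). Reads of the Lce3, Sprr and Krt6 families may be split between near-identical copies.

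The keratins of the list differed among themselves. Krt10, of the suprabasal layers, had log2 folds of -0.89 with CPA and -0.60 with DMSO and was not called, while Krt1, its partner, had -2.04 with CPA and -0.50 with DMSO. Krt13, a keratin of mucosal epithelium, had 1034 and 14975 counts in 25°C_CPA and 37°C_CPA, and 1418 and 18262 counts in 25°C_DMSO and 37°C_DMSO. The basal keratins stood apart: Krt5 and Krt14 had log2 folds of -0.37 and -0.33 with CPA, and 0.08 and -0.04 with DMSO. Of 22 general epithelium markers 5 were lower and 1, Krt15, was higher with CPA (median -0.60, or 0.06 scaled to Gapdh), and 6 were lower with DMSO (median -0.64). The summed level of the 22 markers was 3589 CPM in 25°C_CPA and 4797 CPM in 37°C_CPA, against 3785 CPM in 25°C_DMSO and 4622 CPM in 37°C_DMSO, so the cornified genes moved far more than epithelium as a whole. Whether fewer suprabasal cells were present was not tested.

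Most interferon-response genes were lower at 25 °C in both media, with similar medians. With CPA 22 of 25 were lower and 0 higher (median -2.72), and with DMSO 21 of 25 were lower (median -2.87). Among the lower genes, Cmpk2 was measured with CPA only and Ifih1 with DMSO only. Isg15, a ubiquitin-like protein induced by interferon, had 41 counts in 25°C_CPA and 2251 in 37°C_CPA, and 26 counts in 25°C_DMSO and 1873 in 37°C_DMSO. It was 52.6-fold lower with CPA (38.7 to 73.6) and 62.2-fold lower with DMSO (42.3 to 95.4). Ifit1, which binds foreign RNA ends, had 5 and 210 counts in 25°C_CPA and 37°C_CPA, and 7 and 124 counts in 25°C_DMSO and 37°C_DMSO. Stat2, a signal transducer, Irf1, a transcription factor, and Ddx58, an RNA sensor, were not called with CPA, at log2 folds of -0.48, -0.42 and -0.12.

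These genes are known for an interferon-stimulated response element in the promoter. Its core (letters TTTCNNTTT, either strand) was found in 72.0% of 25 interferon-response promoters, in 7.45% of promoters of measured genes and in 10.7% of all 27025. It is shown for leading genes of the list, with the copy nearest to the start in capitals and any other left in lower case.
Isg15: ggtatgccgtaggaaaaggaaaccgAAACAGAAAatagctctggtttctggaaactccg
Ifit1: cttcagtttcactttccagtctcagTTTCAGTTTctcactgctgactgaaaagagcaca
The stretches lie at chr4:156200850-156200908 and chr19:34640779-34640837 of GRCm38, before the start of Isg15 and Ifit1.

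Inflammatory signals and macrophage genes went the same way. Of 21 chemokines and cytokines 16 were lower and 0 higher with CPA (median -1.93), and 20 of 25 were lower with DMSO (median -1.82). Ccl6, a chemokine of myeloid cells, had 111 counts in 25°C_CPA and 7411 in 37°C_CPA, and 140 counts in 25°C_DMSO and 8632 in 37°C_DMSO. Of 15 antigen presentation genes 10 were lower with CPA (median -1.21), and 9 of 14 were lower with DMSO (median -1.41). H2-Eb1, an MHC class II chain, had 1 count in 25°C_CPA and 82 in 37°C_CPA, and 7 in 25°C_DMSO and 13 in 37°C_DMSO. It reached the minimum count only through 37°C_CPA and was not measured with DMSO, and its ratio rests on a single count.

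Of 20 macrophage and leukocyte markers 11 were lower and 1 was higher with CPA (median -1.35), and 14 were lower with DMSO (median -1.98). The summed level of 22 such genes was 325 CPM in 25°C_CPA and 1015 CPM in 37°C_CPA, against 322 CPM in 25°C_DMSO and 1367 CPM in 37°C_DMSO, and no marker was at 0 in any library. Lyz2, the macrophage lysozyme, was 9.14-fold lower with CPA (8.41 to 9.95) and 12.7-fold lower with DMSO (11.7 to 13.9). The macrophage receptor Csf1r had 222 and 244 counts in 25°C_CPA and 37°C_CPA, and 213 and 547 counts in 25°C_DMSO and 37°C_DMSO. Coro1a, an actin regulator of leukocytes, was the marker higher with CPA, at 62 and 28 counts in 25°C_CPA and 37°C_CPA. The part of macrophage number in the chemokine and interferon values was not tested.

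Matrix proteases followed in part. Of 22 proteases and inhibitors 9 were lower with CPA (median -0.83), and 13 of 23 were lower with DMSO (median -1.12). Mmp12, the macrophage elastase, had 17 and 1301 counts in 25°C_CPA and 37°C_CPA, and 14 and 1152 counts in 25°C_DMSO and 37°C_DMSO. Mmp2 and Mmp14, which stromal cells express, had log2 folds of 0.21 and -0.15 with CPA and 0.02 and -0.84 with DMSO. The called and the uncalled proteases were thus different genes of the same family.

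Globin genes of red cells were higher at 25 °C in both media. Of 7 erythroid markers 6 were higher with CPA (median 1.95) and 6 with DMSO (median 2.40). Hbb-bs, an adult beta globin, had 14548 counts in 25°C_CPA and 2721 in 37°C_CPA, and 13029 counts in 25°C_DMSO and 2861 in 37°C_DMSO. Hbb-bt, its near copy, was 11.8-fold higher with CPA (10.8 to 12.9) and 12.2-fold higher with DMSO (11.1 to 13.3), and the split of reads between the copies is uncertain. Hbb-y, an embryonic globin, was 8.07-fold higher with CPA (6.75 to 9.71) and 21.8-fold higher with DMSO (17.4 to 27.6). Tfrc, the transferrin receptor, which many dividing cells also express, had log2 folds of -0.65 and -0.88.

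Cirbp and Rbm3, the RNA-binding proteins known to be induced by cooling, were higher at 25 °C in both media. Cirbp had 5720 counts in 25°C_CPA and 1252 in 37°C_CPA, and 5164 counts in 25°C_DMSO and 1352 in 37°C_DMSO. It was 4.76-fold higher with CPA (4.48 to 5.07) and 4.43-fold higher with DMSO (4.17 to 4.70). Rbm3 had 15159 and 5557 counts in 25°C_CPA and 37°C_CPA, and 15571 and 4126 counts in 25°C_DMSO and 37°C_DMSO. Rbm3 was 2.84-fold higher with CPA (2.76 to 2.93) and 4.37-fold higher with DMSO (4.23 to 4.53), and the 37 °C libraries carry that difference. The other 10 members, splicing factors and kinases, held 1 call, Clk2, a kinase of splicing factors, with 1340 and 651 counts in 25°C_CPA and 37°C_CPA and 598 and 746 counts in 25°C_DMSO and 37°C_DMSO. For Clk2 the 25°C_CPA library stood apart.

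Heat shock chaperones were mixed. Of 25 genes 5 were lower and 0 higher with CPA (median -0.46, or 0.20 scaled to Gapdh), against 10.9% of all genes lower. With DMSO 6 were lower and 1 higher (median -0.23, or 0.20 scaled to Gapdh), against 11.5% of all genes lower and 6.45% higher. Serpinh1, the collagen chaperone, had 3342 and 9667 counts in 25°C_CPA and 37°C_CPA, and 3296 and 13208 counts in 25°C_DMSO and 37°C_DMSO. Hspb1, a small heat shock protein, was 3.24-fold lower with CPA (3.00 to 3.50) and 2.52-fold lower with DMSO (2.34 to 2.72). Hsp90ab1, the constitutive HSP90, was nearly level at log2 folds of 0.34 with CPA and 0.36 with DMSO. Of 31 genes of the unfolded protein and integrated stress response 7 were lower and 1 higher with CPA (median -0.43, or 0.23 scaled to Gapdh), and 8 were lower and 1 higher with DMSO (median -0.46). The highest was Slc7a5, an amino acid transporter, at 1.15 with CPA and 1.16 with DMSO.

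Many circadian clock genes were higher at 25 °C. Of 17 measured genes 8 were higher and 0 lower with CPA (median 0.91), against 6.32% of all genes higher, and 6 of 18 were higher and 2 lower with DMSO (median 0.74). Per3, a repressor of the clock, had 917 counts in 25°C_CPA and 220 in 37°C_CPA, and 952 counts in 25°C_DMSO and 208 in 37°C_DMSO. Hlf, a transcription factor driven by the clock, had 956 and 201 counts in 25°C_CPA and 37°C_CPA, and 804 and 414 counts in 25°C_DMSO and 37°C_DMSO. Hlf was thus 4.96-fold higher with CPA (4.26 to 5.80) and 2.25-fold higher with DMSO (2.00 to 2.54), while Per3 differed little between the media. Bhlhe40 and Bhlhe41, repressors that also answer hypoxia, were at the low end, with log2 folds of -0.99 and -0.59 with CPA and -1.46 and -1.40 with DMSO.

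The clock works through the E-box (letters CACGTG, the same on both strands), which 29.4% of 17 clock promoters held against 10.4% of promoters of measured genes and 7.24% of all promoters. It is shown in capitals for genes of the list that were higher at 25 °C.
Per1: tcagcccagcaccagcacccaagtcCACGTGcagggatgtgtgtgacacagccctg
Tef: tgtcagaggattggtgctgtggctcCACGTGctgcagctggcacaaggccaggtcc
The stretches lie at chr11:69098758-69098813 and chr15:81802521-81802576 of GRCm38. Per1, a light- and hormone-induced repressor, had log2 folds of 1.29 with CPA and 0.61 with DMSO, and Tef, a relative of Hlf, 1.25 and 1.48. No E-box was found in the windows of Per3, Dbp and Nr1d1.

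Many glycolysis and hypoxia genes were lower at 25 °C in both media, with smaller folds in most of them with CPA. Of 33 genes 16 were lower and 1 higher with CPA (median -0.95), and 21 of 34 were lower with DMSO (median -1.57). All 16 were lower in both, and the ratio of folds was above 1 in 29 of 33, against 51.7% of all genes (68.2% without scaling, 75.4% scaled to Gapdh). Vegfa, the vascular growth factor, had 1663 counts in 25°C_CPA and 3914 in 37°C_CPA, and 1657 counts in 25°C_DMSO and 7149 in 37°C_DMSO. Here the 37°C_DMSO library was the highest of the 4. The lowest with CPA were Slc16a3, a lactate exporter, Egln3, an oxygen-sensing hydroxylase, and Pfkp, a phosphofructokinase, with log2 folds of -3.50, -2.31 and -1.99, against -3.06, -2.97 and -1.96 with DMSO. Aldoc, an aldolase of brain, was the exception, with 173 and 87 counts in 25°C_CPA and 37°C_CPA.

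The core of the hypoxia response element (letters ACGTG, either strand, which the E-box contains) was found in 57.6% of 33 promoters of this list, in 26.1% of promoters of measured genes and in 19.7% of all promoters. The median GC content of the windows was 65.0% in the list, 61.3% over measured genes and 52.7% over all promoters. Stretches with the copy of the core nearest to the start in capitals, and any other left in lower case, are shown for genes at the low end of the list and for Ldha, lactate dehydrogenase A.
Egln3: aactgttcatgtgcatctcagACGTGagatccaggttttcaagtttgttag
Ankrd37: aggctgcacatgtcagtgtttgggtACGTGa
Ldha: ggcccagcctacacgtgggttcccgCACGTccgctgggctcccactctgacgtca
On GRCm38 they lie at chr12:54204074-54204124, chr8:45999851-45999881 and chr7:46845745-46845799. Ankrd37, a hypoxia target, had 55 and 193 counts in 25°C_CPA and 37°C_CPA, and 39 and 412 counts in 25°C_DMSO and 37°C_DMSO. Ldha had log2 folds of -1.15 and -1.19.

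A few cholesterol synthesis genes were called higher at 25 °C, and the median of the list lay above that of all genes with CPA. Of 23 genes 5 were higher and 0 lower with CPA (median 0.66), and 2 were higher with DMSO (median 0.13, or -0.09 without scaling). The ratio of folds was above 1 in 21 of 23, against 51.7% of all genes, and reached 2 in 0. Insig1, which holds back the sterol-sensing transcription factor and is itself its target, had 1991 counts in 25°C_CPA and 585 in 37°C_CPA, and 2083 counts in 25°C_DMSO and 1188 in 37°C_DMSO. Lss, lanosterol synthase, had a log2 fold of 1.34 with CPA and 0.90 with DMSO. Pmvk, phosphomevalonate kinase, was the lowest at -0.69 with CPA and -0.83 with DMSO.

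Some bone genes changed side between the media. In the odontoblast and bone list 3 of 11 genes were lower and 3 higher at 25 °C with CPA (median -0.36, or 0.30 scaled to Gapdh). With DMSO it was 10 of 14 lower and 0 higher (median -1.79). Dmp1, Omd and Panx3 were measured with DMSO only, and their log2 folds with CPA were -1.38, -1.01 and 1.75. Among the 11 genes measured in both, the ratio of folds was above 1 in 10. Over all genes it was above 1 in 51.7% (68.2% without scaling, 75.4% scaled to Gapdh). Ibsp, which encodes bone sialoprotein of mineralising matrix, had 686 counts in 25°C_CPA and 281 in 37°C_CPA, and 390 counts in 25°C_DMSO and 5098 in 37°C_DMSO. It was 2.55-fold higher at 25 °C with CPA (2.21 to 2.94) and 11.3-fold lower with DMSO (10.2 to 12.5), and the 37°C_DMSO library stood far above the other 3. Ifitm5, an osteoblast membrane protein, had 83 and 16 counts in 25°C_CPA and 37°C_CPA, and 55 and 295 counts in 25°C_DMSO and 37°C_DMSO. Phospho1, a phosphatase of matrix vesicles, had 117 and 54 counts in 25°C_CPA and 37°C_CPA, and 100 and 363 counts in 25°C_DMSO and 37°C_DMSO.

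Other bone genes kept 1 direction. Spp1, which encodes osteopontin, had 116 counts in 25°C_CPA and 3041 in 37°C_CPA, and 93 counts in 25°C_DMSO and 2463 in 37°C_DMSO. It was 25.1-fold lower with CPA (20.9 to 30.5) and 22.8-fold lower with DMSO (18.6 to 28.4), so the secreted bone proteins Ibsp and Spp1 parted. Col1a1, the type I collagen chain, had 8699 and 24034 counts in 25°C_CPA and 37°C_CPA, and 8264 and 49104 counts in 25°C_DMSO and 37°C_DMSO. Postn, a matrix protein of periosteum and ligament, was 2.10-fold higher with CPA (2.01 to 2.19) and 1.76-fold higher with DMSO (1.69 to 1.83).

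Collagens and matrix genes as a group showed a smaller difference with CPA. Of 38 genes 8 were lower and 1, Postn, was higher (median -0.37, or 0.29 scaled to Gapdh), and with DMSO 14 were lower and 0 higher (median -0.85). The ratio of folds was above 1 in 34 of 38, against 51.7% of all genes, and reached 2 in 0. Col3a1, the type III collagen chain, had 9306 and 8414 counts in 25°C_CPA and 37°C_CPA, and 9332 and 17956 counts in 25°C_DMSO and 37°C_DMSO. The pattern of Col1a1 and Col3a1, with near-equal 25 °C libraries and the highest value in 37°C_DMSO, was that of Vegfa as well.

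Several muscle genes also changed side. With CPA 5 of 10 measured skeletal muscle markers were higher and 1 was lower at 25 °C (median 0.99). With DMSO 1 of 11 was higher and 6 were lower (median -1.29). The measured members differed between the media. Chrna1, higher with CPA on 51 and 8 counts, had 32 and 8 counts with DMSO, too few to be measured. Tnnt3 and Tnni1, lower with DMSO, were not measured with CPA, where their log2 folds were -1.11 and 0.43. Among the 9 genes measured in both, the ratio of folds was above 1 in 9. Over all genes it was above 1 in 51.7% (68.2% without scaling, 75.4% scaled to Gapdh). Myog, the myogenic transcription factor, had 199 counts in 25°C_CPA and 48 in 37°C_CPA, and 144 counts in 25°C_DMSO and 201 in 37°C_DMSO. It was 4.32-fold higher with CPA (3.14 to 6.06), and its fold with DMSO, 1.20-fold lower, had an interval that reached 1 (0.967 to 1.5). Tnnt1, slow troponin T, was called in opposite directions, with 72 and 37 counts in 25°C_CPA and 37°C_CPA and 54 and 156 counts in 25°C_DMSO and 37°C_DMSO. Car3, a carbonic anhydrase of muscle and fat, had 83 and 13 counts in 25°C_CPA and 37°C_CPA, and 82 and 297 counts in 25°C_DMSO and 37°C_DMSO.

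Some muscle genes did not change side. Acta1, skeletal actin, was 3.52-fold lower with CPA (2.58 to 4.88) and 13.1-fold lower with DMSO (8.51 to 21.2). Myl4, an embryonic myosin light chain, was 6.24-fold higher with CPA (4.88 to 8.08) and 5.19-fold higher with DMSO (4.11 to 6.62). The summed level of the 16 muscle markers was 125 CPM in 25°C_CPA and 61.9 CPM in 37°C_CPA, against 95 CPM in 25°C_DMSO and 136 CPM in 37°C_DMSO. Muscle is not part of the tooth germ, and the share of attached tissue in each library cannot be told apart from a response of the muscle genes.

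Genes that differ between male and female tissue also differed between the libraries. Of 4 genes on the Y chromosome, Uty, Ddx3y and Kdm5d had log2 folds of 0.64, 0.74 and 0.95 with CPA and -1.22, -1.42 and -0.74 with DMSO, and Eif2s3y had 1.44 and -0.08. Xist, which is transcribed from the inactive X chromosome, had 1711 and 2562 counts in 25°C_CPA and 37°C_CPA, and 2674 and 1529 counts in 25°C_DMSO and 37°C_DMSO. The labels used here do not give the sex of the embryos. A different mix of male and female tissue cannot be told apart from a change of these genes, and its part in the bone and muscle values was not tested. Of the other tissues, 3 of 13 endothelium, 3 of 7 nerve and 2 of 5 cartilage markers were lower with CPA, against 10.9% of all genes. Higher were 0, 1 and 0, against 6.32% of all genes. Endothelium markers summed to 168 CPM in 25°C_CPA and 221 CPM in 37°C_CPA, against 184 CPM in 25°C_DMSO and 274 CPM in 37°C_DMSO. Nerve markers summed to 69.0 and 109 CPM in 25°C_CPA and 37°C_CPA, and 77.5 and 132 CPM in 25°C_DMSO and 37°C_DMSO. Cartilage markers summed to 100.3 and 143 CPM in 25°C_CPA and 37°C_CPA, and 98.3 and 156 CPM in 25°C_DMSO and 37°C_DMSO.

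The genes of calprotectin, which neutrophils and stressed epithelium express, were set apart by a 25 °C library. S100a8 had 326 counts in 25°C_CPA and 129 in 37°C_CPA, and 30 counts in 25°C_DMSO and 91 in 37°C_DMSO. S100a9 had 207 and 417 counts in 25°C_CPA and 37°C_CPA, and 6 and 462 counts in 25°C_DMSO and 37°C_DMSO. The partners therefore differed in direction with CPA, where S100a8 was 2.64-fold higher (2.14 to 3.26) and S100a9 was 1.93-fold lower (1.63 to 2.29). Csf2rb2, a receptor subunit of myeloid cells, had 80 and 145 counts in 25°C_CPA and 37°C_CPA, and 15 and 312 counts in 25°C_DMSO and 37°C_DMSO. Ltf, the neutrophil lactoferrin, was at 0 in both 25 °C libraries.

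**Figure D3:**
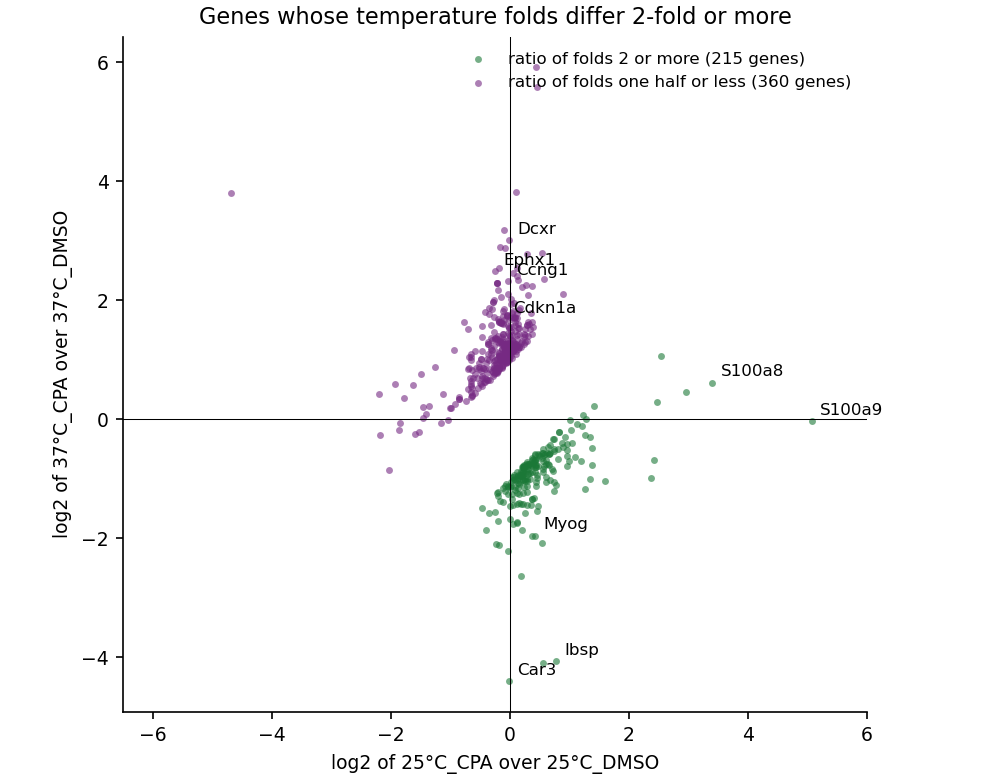
Genes whose temperature folds differed at least 2-fold between the media, placed by the log2 ratio of 37°C_CPA over 37°C_DMSO (vertical) and of 25°C_CPA over 25°C_DMSO (horizontal). Their difference is the log2 ratio of folds by construction: the 360 genes with a ratio of 0.5 or less spread mainly along the vertical axis, as do Ibsp and Car3 on the other side, while S100a8 and S100a9 are displaced along the horizontal axis.

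Several tooth genes differed by temperature in both media. Ambn is the gene of ameloblastin, a protein of the enamel matrix. It had 1255 counts in 25°C_CPA and 116 in 37°C_CPA, and 1297 counts in 25°C_DMSO and 183 in 37°C_DMSO. It was 11.3-fold higher at 25 °C with CPA (9.32 to 13.8) and 8.21-fold higher with DMSO (7.03 to 9.64). Ambn lies on chromosome 5 at 88885036 to 88897552 of mm9. The other enamel genes were lower or not called, 3 of 8 lower with CPA (median of the 8 genes -0.92) and 5 of 8 with DMSO (median -1.39), against 10.9% and 11.5% of all genes. Odaph, an acidic enamel phosphoprotein, had 12 and 321 counts in 25°C_CPA and 37°C_CPA, and 16 and 458 counts in 25°C_DMSO and 37°C_DMSO. Odam, secreted by mature ameloblasts and junctional epithelium, had log2 folds of -3.56 and -3.29. Nkx2-3, a homeobox gene of the dental epithelium, had 611 and 953 counts in 25°C_CPA and 37°C_CPA, and 621 and 1262 counts in 25°C_DMSO and 37°C_DMSO, which is not a call.

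Signals of the enamel knot, the centre that shapes the cusps, were split as well. Cdkn1a is also a marker of the knot and is on this list. Of 16 measured genes 2 were higher and 5 lower with CPA (median -0.61, or 0.05 scaled to Gapdh), and 1 of 17 was higher and 8 lower with DMSO (median -0.77). Shares over all genes were 6.32% higher and 10.9% lower with CPA, and 6.45% and 11.5% with DMSO. Fgf20, a growth factor downstream of ectodysplasin, had 1062 counts in 25°C_CPA and 186 in 37°C_CPA, and 1080 counts in 25°C_DMSO and 193 in 37°C_DMSO. Shh, the sonic hedgehog signal, had 206 and 916 counts in 25°C_CPA and 37°C_CPA, and 128 and 1046 counts in 25°C_DMSO and 37°C_DMSO. Fgf20 and Shh thus went opposite ways in each medium. Lef1, a Wnt effector, had 606 and 632 counts in 25°C_CPA and 37°C_CPA, and 540 and 1360 counts in 25°C_DMSO and 37°C_DMSO.

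Regulators of the dental epithelium numbered 17, of which 1 was higher and 3 lower with CPA (median -0.21, or 0.45 scaled to Gapdh), and 1 higher and 3 lower with DMSO (median -0.77). All measured genes gave 6.32% higher and 10.9% lower with CPA, and 6.45% and 11.5% with DMSO. Eda, which encodes ectodysplasin, had 299 and 124 counts in 25°C_CPA and 37°C_CPA, and 261 and 147 counts in 25°C_DMSO and 37°C_DMSO. Hopx, a homeodomain cofactor, was 9.36-fold lower with CPA (8.57 to 10.2) and 9.64-fold lower with DMSO (8.88 to 10.5). Among 18 dental mesenchyme markers 1, Lhx8, was higher and 0 lower with CPA (median 0.09), while 1 was higher and 5 were lower with DMSO (median -0.16, or 0.26 scaled to Gapdh). Lhx8, a LIM homeobox gene of the jaw mesenchyme, was 2.94-fold higher with CPA (2.68 to 3.21) and 2.71-fold higher with DMSO (2.48 to 2.96). The ratio of folds was above 1 in all 18 markers, against 51.7% of all genes.

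**Figure D4:**
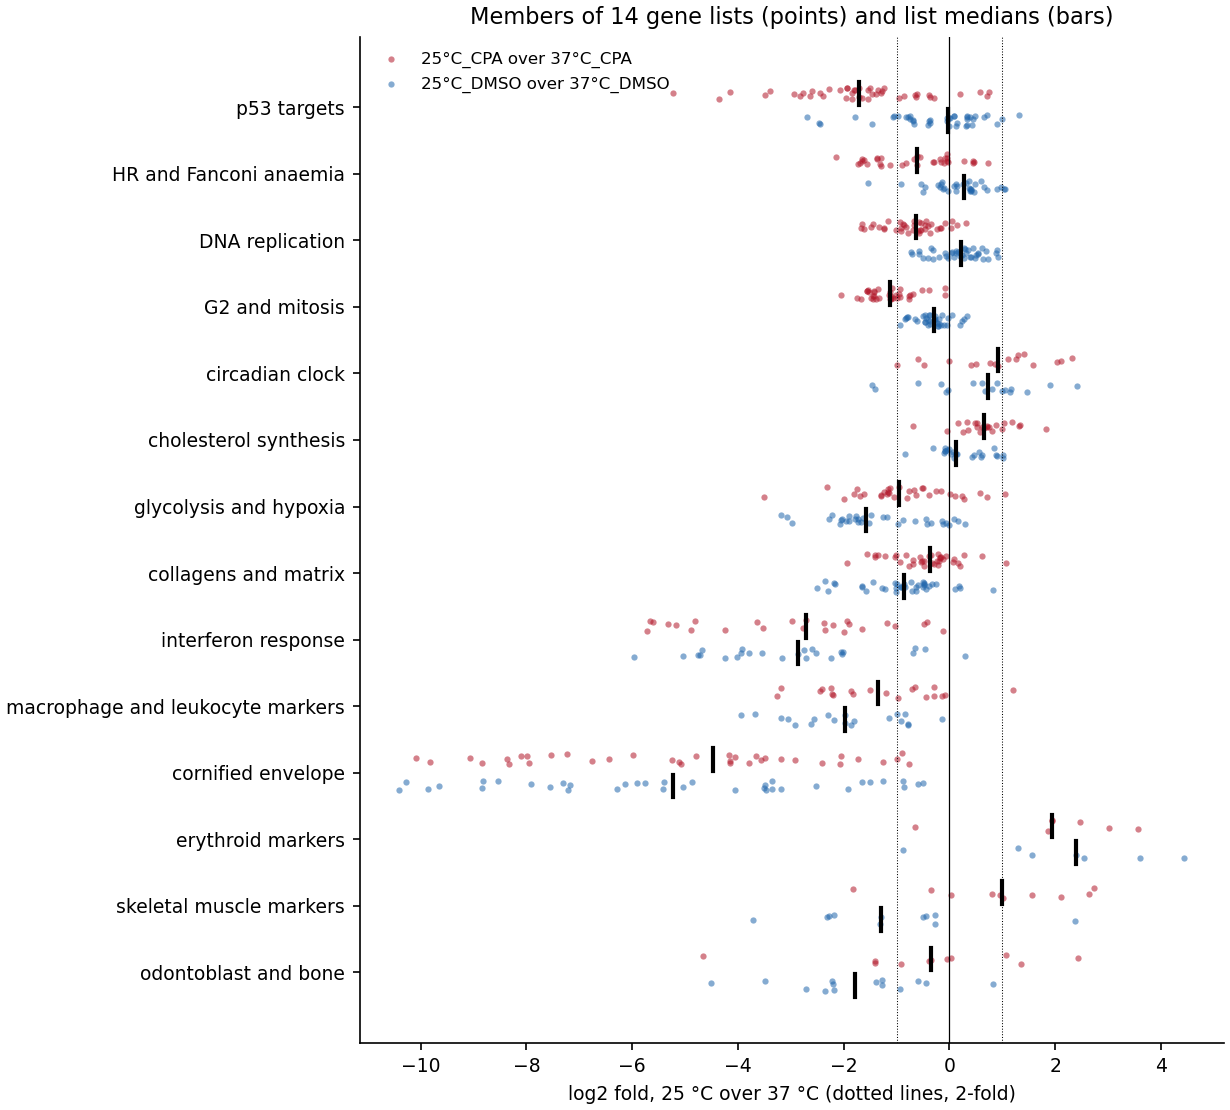
Log2 fold of 25 °C over 37 °C for the measured members of 14 gene lists (points, with random vertical spread), 25°C_CPA over 37°C_CPA in red above 25°C_DMSO over 37°C_DMSO in blue, with black bars at the medians and dotted lines at 2-fold. Each median is over the members measured in its own comparison, including folds that are lower bounds. The medians of the p53 targets (-1.71 with CPA, -0.03 with DMSO) and of the muscle markers (0.99 and -1.29) lie apart, and those of the interferon genes (-2.72 and -2.87) lie close together.

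Other genes were named by their rank among the higher ones with CPA. Ltb, which encodes lymphotoxin beta, had 306 counts in 25°C_CPA and 23 in 37°C_CPA, and 351 counts in 25°C_DMSO and 106 in 37°C_DMSO. Tac1, the precursor of substance P, had 514 and 54 counts in 25°C_CPA and 37°C_CPA, and 412 and 136 counts in 25°C_DMSO and 37°C_DMSO. Ltb and Tac1 were 13.9-fold (9.08 to 22.2) and 9.93-fold (7.49 to 13.4) higher with CPA, and 3.84-fold (3.08 to 4.82) and 3.51-fold (2.89 to 4.29) higher with DMSO, so both differed more with the drug. Cbln1, a secreted synapse organiser, had 674 and 115 counts in 25°C_CPA and 37°C_CPA, and 485 and 213 counts in 25°C_DMSO and 37°C_DMSO. Txnrd3, a thioredoxin reductase, was 8.70-fold higher with CPA (6.58 to 11.7) and 7.18-fold higher with DMSO (5.63 to 9.26). D9Wsu149 had 876 counts in 25°C_CPA and 0 in 37°C_CPA, and 498 counts in 25°C_DMSO and 0 in 37°C_DMSO, which makes it at least 305-fold higher with CPA, and its counts were shared by 3 identical rows.

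Most genes of drug handling were not called. Of 28 drug activation and detoxification genes 6 were lower and 1 higher with CPA (median -0.12, or 0.54 scaled to Gapdh), against 10.9% of all genes lower. Among the 6, Abcb1b and Gsta3 reached the minimum count only through 37°C_CPA and were not measured with DMSO. With DMSO 2 of 26 were lower (median -0.07, or 0.36 scaled to Gapdh), against 11.5% of all genes. The ratio of folds was below 1 in 20 of 26, against 48.3% of all genes, and in 13 scaled to Gapdh, against 24.6%. The lowest, Abcb1b and Ephx1, are p53 targets as well. Aldh1a3, a retinal dehydrogenase, had 302 and 1431 counts in 25°C_CPA and 37°C_CPA, and 272 and 1943 counts in 25°C_DMSO and 37°C_DMSO. Por, the reductase that serves the cytochrome P450 enzymes which activate the drug, had 488 and 528 counts in 25°C_CPA and 37°C_CPA, and 510 and 859 counts in 25°C_DMSO and 37°C_DMSO.

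Housekeeping groups moved little. Of 45 nuclear-encoded respiratory chain genes 0 were called with CPA (median 0.15) and 1 was higher with DMSO (median 0.24). Of 47 cytosolic ribosomal protein genes 2, Rpl38 and Rps27, were higher with CPA (median 0.26) and 4 with DMSO (median 0.29), and reads of these genes may be shared with pseudogenes. Of 7 histone genes 0 were called in either comparison (medians -0.01 and 0.04, which change sign under other scalings). H2ax, the histone variant phosphorylated at DNA breaks, had 13526 and 18504 counts in 25°C_CPA and 37°C_CPA, and 14548 and 13585 counts in 25°C_DMSO and 37°C_DMSO. Immediate early genes were lower in part, 7 of 22 with CPA (median -0.64, or 0.02 scaled to Gapdh) and 7 of 24 with DMSO (median -0.81).

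The promoters of the called genes were searched for the same motifs. The AP-1 site (letters TGANTCA) was found in 10.1% of 1028 promoters of genes lower with CPA and in 13.3% of 669 promoters of genes lower in both media, against 4.78% of 9647 promoters of measured genes. The cell cycle homology element was found in 23.9% of 305 promoters of genes lower with CPA and not called with DMSO, against 12% of measured promoters and 14.3% of those lower in both. The heat shock element (letters GAANNTTC) was found in 6.81% of promoters lower with CPA and in 5.71% of measured ones. A TATA box (letters TATAAA), which was added to the search after the values were seen, was found in 41.7% of 36 cornified envelope promoters against 7.23% of promoters of measured genes and 14.2% of all promoters. These letters hold no G or C. The median GC content of the windows was 47.8% in the cornified list, 61.3% over measured genes and 52.7% over all promoters. No TATA box was found in the 250 bases before the start of Lce3a and Cnfn. One is shown for Sprr1a at chr3:92485894-92485949 of GRCm38, a gene with 17 counts in 25°C_CPA and 3288 in 37°C_CPA.
Sprr1a: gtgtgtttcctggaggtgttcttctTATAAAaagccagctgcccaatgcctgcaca
These shares are descriptions without a test.

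The counts of calls depend on the scaling. Scaled to Gapdh, which itself was 1.58-fold lower at 25 °C with CPA (1.25 to 2.01) on 117 and 193 counts in 25°C_CPA and 37°C_CPA, the median of all genes moved by 0.66 with CPA and 0.43 with DMSO. The share of calls that were higher was then 85.5% with CPA in place of 36.7%, and 72.2% with DMSO in place of 35.9%. Without scaling the median moved by -0.06 with CPA and -0.21 with DMSO, and the share was 31.2% and 20.7%. Beyond the lists for which this was given, scaling to Gapdh left 6 of 16 glycolysis and hypoxia, 4 of 10 antigen presentation, 1 of 8 collagen and matrix, 1 of 7 unfolded protein response, 2 of 7 immediate early, 4 of 8 G1 to S, 1 of 5 apoptosis and 1 of 5 general epithelium calls on the lower side with CPA. It left 23 of 33 p53 target, 19 of 22 interferon and 32 of 33 cornified calls. On the higher side it gave 18 cholesterol synthesis and 13 clock genes. Every gene moves by the same amount under such a change, so a list's distance from the median of all genes stays as given above.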

How the data were processed

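CAGE (cap analysis of gene expression) counts the 5′ ends of capped RNAs. Per the study's methods, alignment was to mm9, and start sites were derived with SAMtools in the MOIRAI pipeline. The submitters' processing notes also name BWA 0.5.9 and GRCh38, without roles. The deposited values are raw tag counts for each gene, before any normalization. How tags were assigned to genes is not given in the sources used here.

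TMM factors were computed over the 4 libraries with edgeR 4.0.16 in R 4.3.3. Folds are ratios of count over total times factor, computed in Python 3.11.15 with pandas 2.3.3, SciPy 1.17.1 and numpy 2.4.6. The ratio of 2 folds was taken over genes measured in both comparisons. Alternatives were no scaling, the total count, DESeq2 1.42.0 size factors, TMM over the compared columns, Gapdh, other minimum counts, 10 added counts, identical rows taken once, and intervals wholly beyond 2-fold. On simulated counts for 25°C_CPA over 37°C_CPA, over 13026 genes, the interval held the true fold for 95.4%.

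The comparison, the 37 gene lists (863 of 974 genes matched) and the motifs were chosen with earlier results of these data known. Named were up to 12 genes each way by the interval bound nearest to 1 with at least 200 counts, up to 8 each way by the ratio of folds, up to 3 members at each end of a list, members needed to tell a list's parts apart, and 9 genes the study probed. Predicted and Riken genes were left out. Amelogenin and AmeloD were not analysed here. Positions are from GENCODE vM1 on mm9 (14333 genes matched) and promoters from RefSeq on GRCm38.p6, with no conversion between them.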

Additional observations from a re-analysis of the deposited data

Results flagged for a closer look

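The 7 genes below were called in opposite directions in the CPA and DMSO comparisons. The difference was not tested, since each condition has 1 library. The log2 fold of 25 °C over 37 °C was 1.35 with CPA and -3.50 with DMSO for Ibsp, 2.44 and -2.21 for Ifitm5, and 1.18 and -1.65 for Phospho1, all genes of mineralising bone. It was 2.74 and -1.64 for Car3 and 1.02 and -1.32 for Tnnt1, genes that muscle expresses. It was 1.40 and -1.39 for S100a8, a calprotectin subunit. Dcxr, a sugar reductase, had -1.71 with CPA and 1.31 with DMSO. An eighth gene, the pseudogene Gm10221, had 2 and 271 counts in 25°C_CPA and 37°C_CPA, and 50 and 21 counts in 25°C_DMSO and 37°C_DMSO, and its reads may belong to a related gene.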

How the results depend on the processing

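With DESeq2 size factors, total counts, TMM over the compared columns, 10 added counts or identical rows taken once, the 8 counts of calls stayed within 1.5 times. Without scaling, 555 genes were higher with DMSO and 370 had a ratio of folds of 2 or more. Scaled to Gapdh, 3733 genes were higher and 635 lower with CPA, 2399 higher and 922 lower with DMSO, 1941 higher and 471 lower in both, and the ratio was 2 or more in 503 and 0.5 or less in 209. With a minimum of 200 counts these were 470, 863, 510, 912, 316, 532, 63 and 155. With no minimum, 1345 were higher with CPA, 1327 higher with DMSO, 815 higher and 1473 lower in both, and 718 and 768 had such ratios. With intervals wholly beyond 2-fold they were 420, 940, 450, 1011, 258, 612, 43 and 112. No called fold changed direction under these settings, but none could have done so by scaling. The largest shift was 0.66, and a call needs a log2 fold of at least 1 either way. Where a list median printed above changed sign, that is said beside it. No paired analysis was possible because each condition has 1 library, and for the same reason no library could be left out. Depth limits genes near 50 counts, and no counting interval covers the spread between cultures.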
